A study of Homo sapiens with 4 samples.

Results

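Clone-named genes are genes that carry, in place of an approved symbol, the name of the genomic clone on which they were annotated, such as RP11-349A22.5. The exons described here are the skipped exon events of such genes: rows of the authors' deposited table whose gene symbol begins with RP and a number, CTD-, CTC-, CTB-, CTA-, KB-, or with AC, AL or AP and a number and a point, and whose junction reads averaged 10 or more over the 4 libraries. They were 835 of the 65601 events of the table, on 670 distinct exons of 318 genes. A further 461 events of clone-named genes had fewer reads and were left out, so that 835 of 1296 events of such genes were kept. On the border, an event of CTD-2162K18.5 with a mean of 10 reads was kept and another of the same gene with 9.75 was not. The events of genes with other names that passed the same read minimum, 58052 events of 10319 genes, served for comparison.

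The libraries came from HEK293T, a line derived from human embryonic kidney cells. Per the labels, 2 libraries were from cells transfected with a gapmer antisense oligonucleotide (ASO; 5-10-5 MOE design, 70 nM, with Lipofectamine RNAiMAX) against Snord89, a small nucleolar RNA, and 2 from cells whose treatment is given as none, with no control ASO named. The medium was changed at 24 h and RNA taken at 48 h. The table splits the 4 libraries into a first and a second set of 2. Its title puts Snord89 before no ASO, but does not say that this is the order of the sets. Neither its header nor the labels say which set had the ASO, so directions are given as first set against second set. The numbers of the libraries within a set name them and pair nothing. Every library was poly(A)-selected. A gapmer binds its target RNA, which RNase H then cuts, and the level of Snord89 itself was not analysed here. Per the labels the libraries are biological replicates. Of the 5 markers chosen as expressed in the line, VIM had 1 event with 3859 to 5561 reads, PAX2 had 6 with 52 to 89 in all, KRT8 had 1 with 23 to 50, and KRT18 and NEFM had none. PTPRC, ALB and COL1A2, markers of blood, liver and fibroblasts, had no event either. A gene with no event may still be expressed, so these counts check the line only weakly.

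A skipped exon event is made of 3 exons, the middle of which is either joined to both neighbours or left out. Reads across its junctions give the inclusion level, the share of transcripts that hold the middle exon, from 0 to 1, after each form's reads are divided by its effective length. Most long non-coding RNAs, antisense transcripts and transcribed pseudogenes are spliced like messenger RNAs, by the same machinery at the same kinds of splice sites, but they are under no constraint to keep a reading frame and are known for low levels and variable exon use. A readthrough gene is a different thing: it is an annotated transcript that runs from one gene into the next and is spliced to exons of both, so its exons are often those of a well-expressed neighbour.

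By GENCODE release 29, an annotation newer than that of the table, 299 of the 318 genes were found by identifier. Of these, 108 had since been given a symbol that is no clone name, among them 36 antisense (-AS) and 22 LINC names. RP11-349A22.5 was PSMA3-AS1, AP000525.9 was DUXAP8, CTA-211A9.5 was MIATNB and AC013394.2 was LINC01578. A gene was classed as readthrough where release 29 tags any of its transcripts so, whatever its type. Genes such as AC007040.7 (ATP6V1B1-AS1) and RP11-574K11.28 (BMS1P4) thus fell there. The 835 events fell into 304 of readthrough genes, 148 of pseudogenes, 126 of antisense genes, 89 of long intergenic RNAs, 78 of processed transcripts (a class for non-coding RNAs with no closer type), 36 of protein-coding genes that are not readthrough, 7 of other non-coding genes and 47 of genes not found. By name, 541 events were of RP clones, 153 of AC, 62 of CTD, 26 of CTC, 25 of AP, 11 of AL, 10 of KB, 5 of CTA and 2 of CTB clones.

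The sequences of the exons on which the results below turn are given first, 5′ to 3′, in lower case with the last 3 bases, the exonic side of the 5′ splice site, in capitals. They were read from release 29 transcripts (GRCh38) of the same gene, matched by exon lengths and spacing, and the positions are those of the table (hg19). The first pair shows what readthrough exons are: the exon of AC024592.12 at chr19:5896916-5897008, minus strand, is whole within NDUFA11, a subunit of mitochondrial complex I, and that of CTC-429P9.4 at chr19:16764846-16764936, minus strand, within SMIM7, which encodes a small membrane protein. Both lie in coding sequence.
AC024592.12: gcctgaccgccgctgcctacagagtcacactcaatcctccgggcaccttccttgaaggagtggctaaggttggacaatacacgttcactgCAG
CTC-429P9.4: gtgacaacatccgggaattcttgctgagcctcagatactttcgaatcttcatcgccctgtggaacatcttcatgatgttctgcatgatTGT
The next exons, of non-coding genes, were called between the sets with levels that did not overlap: LINC01481 (clone-named in the table, annotated antisense) at chr12:70636846-70636984, minus strand, CTA-211A9.5 at chr22:27107793-27107971 and chr22:27113216-27113422, plus strand, RP11-421L21.3 at chr1:101538216-101538386, plus strand, and RP5-886K2.3 (ELOA-AS1) at chr1:24098758-24098916, minus strand. Release 29 holds none of these sequences whole in another gene.
LINC01481: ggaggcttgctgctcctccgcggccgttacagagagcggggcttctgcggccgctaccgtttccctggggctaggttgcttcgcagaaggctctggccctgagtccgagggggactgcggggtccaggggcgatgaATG
CTA-211A9.5, 179 nt: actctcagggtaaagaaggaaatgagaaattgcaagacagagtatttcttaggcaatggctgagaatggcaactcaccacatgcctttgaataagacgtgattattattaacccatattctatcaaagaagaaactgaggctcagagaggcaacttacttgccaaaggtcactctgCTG
CTA-211A9.5, 207 nt: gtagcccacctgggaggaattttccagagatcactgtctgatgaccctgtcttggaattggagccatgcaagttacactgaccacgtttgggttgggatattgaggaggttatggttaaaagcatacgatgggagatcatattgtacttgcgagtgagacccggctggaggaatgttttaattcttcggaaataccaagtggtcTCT
RP11-421L21.3: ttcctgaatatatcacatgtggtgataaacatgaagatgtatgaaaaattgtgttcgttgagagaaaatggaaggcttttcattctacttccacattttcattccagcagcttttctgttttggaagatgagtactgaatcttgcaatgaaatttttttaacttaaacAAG
RP5-886K2.3: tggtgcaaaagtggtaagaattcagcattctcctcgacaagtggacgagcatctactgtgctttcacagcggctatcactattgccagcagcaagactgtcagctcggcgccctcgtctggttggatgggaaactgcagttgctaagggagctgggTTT
The last were deep, intermediate and steady, and are non-coding: RP11-295G20.2 (antisense) at chr1:231663084-231663161, minus strand, and AC013394.2 at chr15:93426815-93427008, plus strand.
RP11-295G20.2: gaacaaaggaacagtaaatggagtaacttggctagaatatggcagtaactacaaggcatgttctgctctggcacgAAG
AC013394.2: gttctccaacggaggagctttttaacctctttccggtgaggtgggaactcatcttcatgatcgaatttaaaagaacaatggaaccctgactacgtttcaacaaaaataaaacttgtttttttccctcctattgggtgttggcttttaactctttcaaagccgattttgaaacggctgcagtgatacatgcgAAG

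The ends of these exons ranged from CAG in AC024592.12 to TTT in RP5-886K2.3. Over all 590 clone-named exons with a matched sequence, 55.3% ended in AG and 81.5% in G, against 55.3% and 80.2% of the 43934 matched exons of other genes (letters on the transcript strand only). The median GC content was 50.9% against 50.5%, and the median exon length was 118 nt in both. What differed was coding: 22.4% of the clone-named exons held coding sequence in release 29, against 84.0% of the others. Without the readthrough genes it was 4.9%, all of it in the protein-coding class. Lengths divisible by 3 made up 36.1% of clone-named exons and 40.3% of the others. In exon end, composition and length, then, the values lay close to those of other genes, and in coding content far from them.

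Library depth is given in whole before the results. The table held 38613055 and 39012939 junction reads in the libraries of the first set, against 42868431 and 43929373 in those of the second, a read being counted in every event that uses its junction. Library 2 of the second set stood apart from the other 3. Of the clone-named events with reads in it, 54.3% had a level of exactly 1, against 26.7%, 30.7% and 31.7% in library 1 and library 2 of the first set and library 1 of the second. In events of other genes the shares were 55.0% against 28.9%, 31.4% and 36.7%. In that library 7 of the clone-named events had no read, against 2 in library 1 of the second set and 0 in the first set. The part of this library in the results was not tested as a cause, and values without it are given where they bear on a result.

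Clone-named events were shallow. The median event had 54 and 49 reads in the libraries of the first set, against 43 and 45 in those of the second, where events of other genes had 198, 177, 137 and 149. In every library the clone-named median was lower, at 0.273, 0.277, 0.314 and 0.302 of the other genes' median. The mean log2 ratio was -1.78 ± 0.0974 (SD, n = 4 libraries), with p = 0.13 in a two-sided exact sign-flip permutation test, the smallest p that 4 libraries allow. The read minimum that chose the events removes the shallowest of both groups. With no minimum the mean ratio was 0.139 in place of 0.291.

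The readthrough genes carried most of the reads. Their median event had a mean of 143.2 reads, near the 166.9 of other genes, and 59.9% of their events reached 100 reads, against 63.4% of other genes' events. The remaining classes were alike in depth: the median was 38.38 reads in pseudogenes, 35.38 in processed transcripts, 33.5 in protein-coding genes, 30 in genes not found, 28.5 in antisense genes, 26.25 in long intergenic RNAs and 22.25 in the 7 other non-coding events. Without the readthrough genes the clone-named median was 31 reads, and 16.6% of events reached 100.

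**Figure D1:**
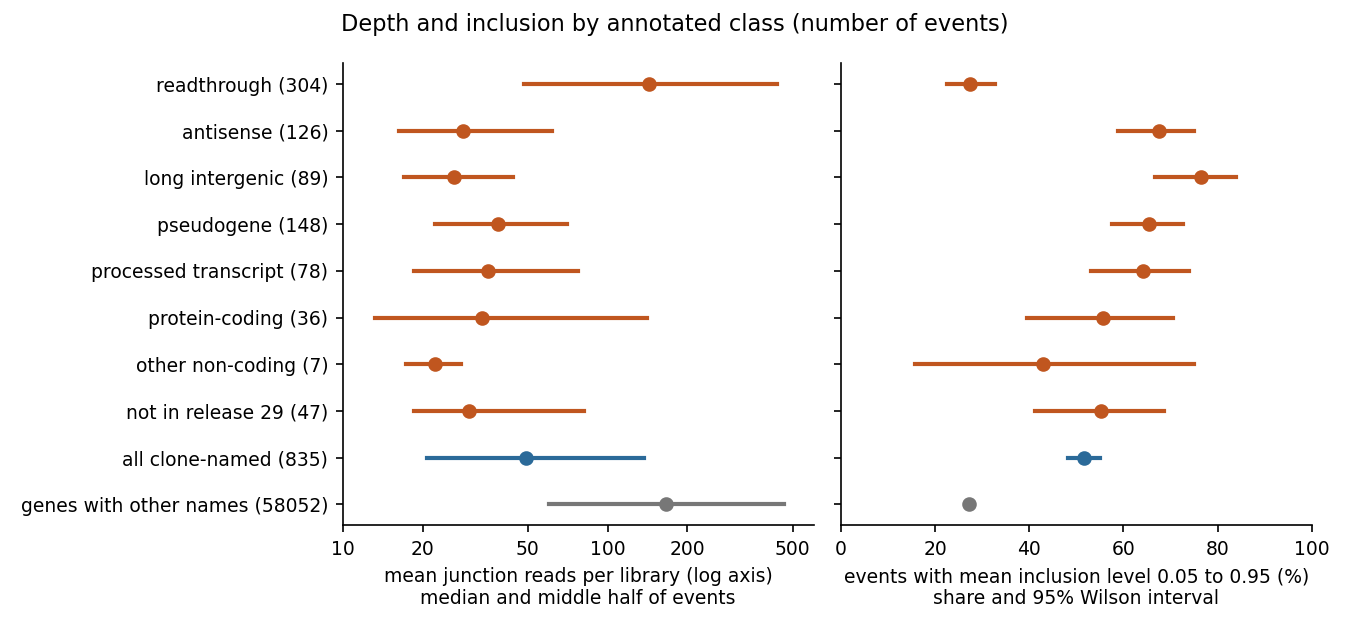
Left, mean junction reads per library of the events of each annotated class (log axis; point, median; bar, middle 50% of events); right, percent of events with a mean inclusion level from 0.05 to 0.95 (point) and its 95% Wilson interval (bar). The readthrough events sit at 143.2 reads and 27.3%, beside the other genes at 166.9 reads and 27.1%, and every other class is shallower and has more intermediate events.

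The deepest clone-named genes were all readthrough genes. The exon of AC024592.12 shown above, shared with NDUFA11, had 8186, 8882, 12517 and 12661 junction reads in the 4 libraries (first set, then second), and its inclusion level was 1, 0.999, 0.998 and 1. The exon of RP11-793H13.8, shared with PCBP2, a poly(C)-binding protein, had 8546, 8587, 8943 and 10025 reads at levels of 0.994, 0.993, 0.993 and 0.997. AC104534.3 shared its exon with HNRNPL, a splicing regulator, and CTC-260F20.3 with NDUFA13, another complex I subunit. These 4 exons were included in nearly every transcript of every library, and the sets overlapped.

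The other 4 of the 8 genes with most reads were RP11-201K10.3, whose exon is also in KRTCAP2, RP11-21J18.1 (NDUFV2, complex I), RP11-552F3.12 (MRPL38, a mitochondrial ribosomal protein) and RP11-542C16.2 (GPS2, a subunit of a nuclear corepressor complex). Their levels lay between 0.996 and 1 in all 4 libraries.

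The readthrough exons were largely exons of their neighbours. Of the 296 readthrough events with a matched sequence, 269 (90.9%) had a middle exon found whole in another gene of release 29, against 45 of 119 (37.8%) in pseudogenes and 26 of 315 (8.25%) in the other classes. No clone-named event had its 3 exons listed a second time under a gene with another kind of name. Single junctions were shared: 181 of 304 readthrough events (59.5%) used at least 1 junction that an event of another gene also used, against 4 of 148 in pseudogenes and 6 of 383 elsewhere. In 50 readthrough events both inclusion junctions were shared. Reads on a shared junction cannot be assigned to the readthrough transcript or to the neighbour, and the whole read count of such an exon is that of both.

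Of all junction reads, 0.467% and 0.473% fell on clone-named events in the first set, against 0.495% and 0.482% in the second. These shares, with means of 0.47 ± 0.00429 and 0.489 ± 0.00955 percent (SD, n = 2 each), came from parts that went opposite ways. Readthrough events took 0.374% and 0.389% in the first set, against 0.418% and 0.412% in the second, lower in both libraries of the first. All others took 0.0936% and 0.0846% in the first set, against 0.0776% and 0.0696% in the second, higher in both libraries of the first. None of the sets overlapped, yet each of the 3 comparisons had p = 0.33 in a two-sided exact permutation test, the smallest that 2 against 2 libraries allow, so this test cannot pass 0.05 here. Junction reads are not gene expression: a read counts once for each event that uses its junction.

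**Figure D2:**
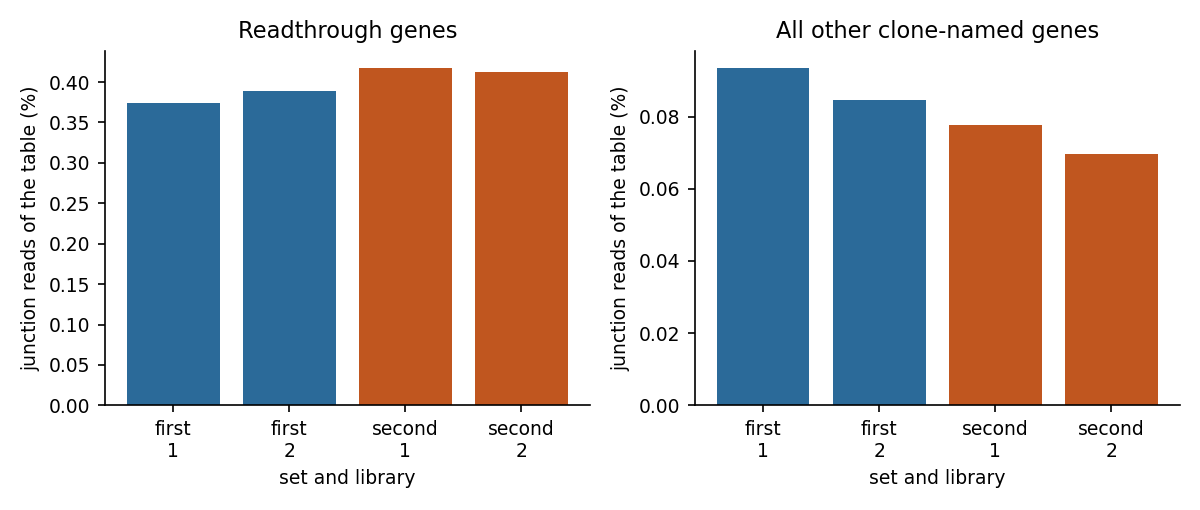
Percent of the table's junction reads in each library (bars; first set, then second set), for events of readthrough genes (left, 0.374% to 0.418%) and of all other clone-named genes (right, 0.0696% to 0.0936%); the vertical axes differ. Readthrough events are lower and the others higher in both libraries of the first set.

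Partly included exons were common among clone-named genes. A mean level from 0.05 to 0.95, called intermediate here, with reads in every library, was found in 432 of 835 events (51.7%, 95% Wilson interval 48.3 to 55.1), against 27.1% (26.8 to 27.5) of events of other genes. Above 0.95 lay 43.1% of clone-named events and 63.1% of the others, and below 0.05 lay 4.19% and 9.23%. Per library, the intermediate share was 47.5%, 47.4%, 45.9% and 30.9% in clone-named events and 28.0%, 27.4%, 26.4% and 21.2% in the others. The clone-named share was higher in each of the 4 libraries, by 17.2 ± 5.0 percentage points (SD, n = 4; two-sided exact sign-flip permutation p = 0.13, the smallest possible), and the gap was 9.67 points in library 2 of the second set against 19.4 to 20 in the rest.

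By class, 76.4% of long intergenic events were intermediate, as were 67.5% of antisense, 65.5% of pseudogene and 64.1% of processed transcript events. The readthrough share was 27.3%, next to that of other genes. Without readthrough genes 65.7% of clone-named events were intermediate. Genes with ordinary symbols that release 29 lists as antisense or long intergenic, 341 events, had 61.3% intermediate and a median of 32 reads, so their values lay near those of the clone-named genes of these classes and not near those of other genes as a whole.

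Depth moved with this difference. Among events of 10 to 20 mean reads, 77.9% of clone-named and 64.3% of other events were intermediate. From 20 to 50 reads it was 66.7% and 50.3%, from 50 to 100 reads 54.9% and 36.1%, from 100 to 200 reads 25.9% and 23.9%, from 200 to 500 reads 23.7% and 16.1%, and at 500 reads or more 2.56% and 8.62%. The clone-named share was thus higher in each group under 500 reads and lower in the deepest, of whose 78 events only 5 were not of readthrough genes. Without readthrough genes the shares were 80.3%, 65.2%, 61.8%, 44.1%, 54.2% and, in only 5 events, 20%. With the other genes' share in each depth group, 338.3 of the 835 events would have been intermediate, and 432 were.

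**Figure D3:**
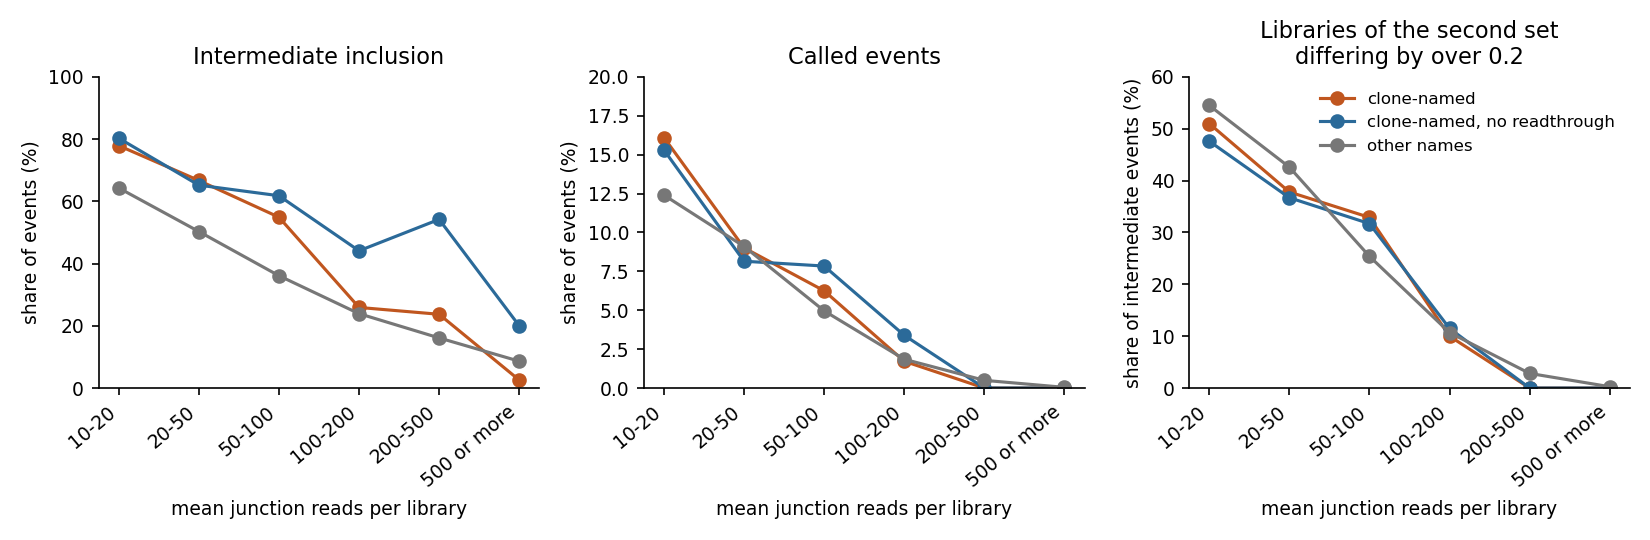
Share of events (percent) by mean junction reads per library, for all clone-named events, those without readthrough genes and events of other genes: intermediate inclusion (left), called events (middle), and, among intermediate events, those whose level differed by more than 0.2 between the libraries of the second set (right). The intermediate shares of all clone-named and other events separate below 100 reads (77.9% against 64.3% at 10 to 20 reads), those without readthrough genes stay apart above it too (44.1% against 23.9% at 100 to 200 reads), while the called shares and the library differences run close together.

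The deepest intermediate exons show steady partial inclusion. The SMIM7 exon of CTC-429P9.4 had 874, 1121, 1301 and 1022 reads and levels of 0.86 and 0.862 in the first set, against 0.879 and 0.88 in the second. The exon of RP11-295G20.2, an antisense RNA, had 466, 558, 883 and 521 reads and levels of 0.768 and 0.806 against 0.811 and 0.811. Both are exons left out of a part of the transcripts at nearly the same level in every library: each had sets that did not overlap, but differences of -0.018 and -0.024, far under 0.1, and an FDR that the authors' deposited table gives as 1.

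AC013394.2 (LINC01578, next to the chromatin remodeller gene CHD2) included its 194-nt exon in the smaller part of its transcripts, at 0.269 and 0.21 in the first set, against 0.229 and 0.225 in the second. AC108488.3 (RNASEH1-AS1) was at 0.727 and 0.658 against 0.659 and 0.62. In both the sets overlapped. RP11-514O12.4, whose exon is in RNASET2, a ribonuclease, lay between 0.864 and 0.914, and RP11-512M8.5, whose exon is in VPS33A, a protein of endosomal trafficking, between 0.92 and 0.959. AP000525.9 (DUXAP8, a non-coding RNA of a pseudogene family) was at 0.878 and 0.816 against 0.9 and 0.953, and RP11-122A3.2 (C8orf88) at 0.893 and 0.923 against 0.95 and 0.967. Both of the latter were lower in the first set without overlap, by 0.08 and 0.05 in the authors' deposited table, and so fell under the difference asked of a call.

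**Figure D4:**
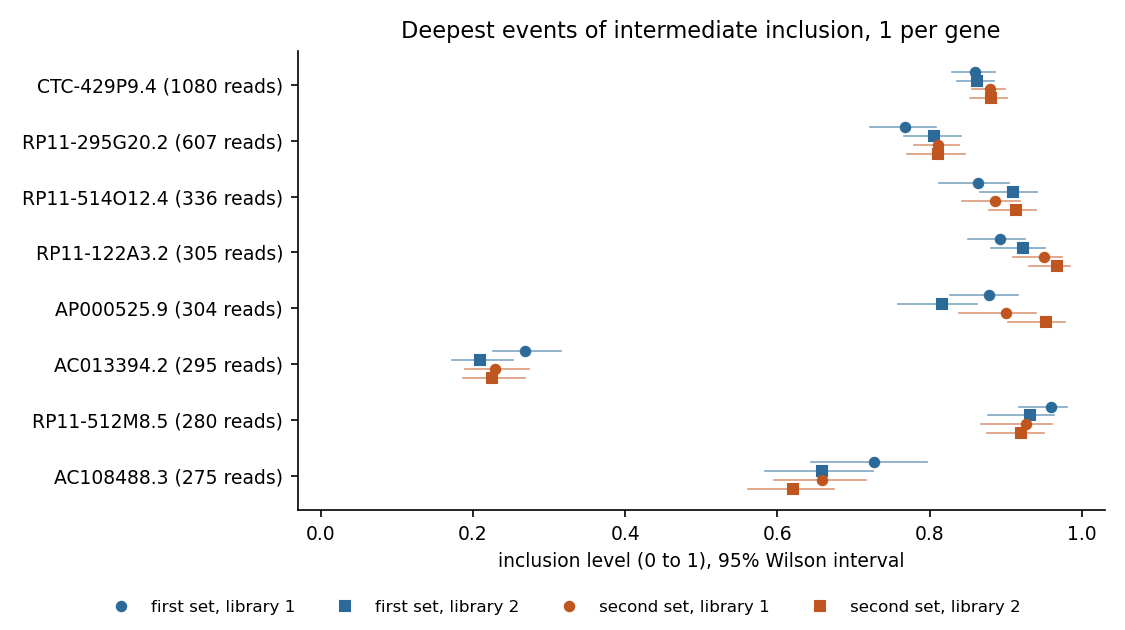
Inclusion level (0 to 1) of the deepest intermediate event of 8 clone-named genes in each library (points; bars, 95% Wilson intervals of the reads, counting error only), with the mean junction reads per library in brackets. All but AC013394.2 (0.21 to 0.269) are included in most transcripts, and the widest span between libraries is that of AP000525.9 (0.816 to 0.953).

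Scatter between libraries of a set was like that of other genes. For each event the chi-square of the libraries of a set was formed from inclusion and skipping reads. Its median was divided by that of the chi-square distribution, so that 1 means sampling noise alone where both forms have many reads. Events without reads of both forms dropped out, and in events with very few reads of a form sampling alone can put the ratio above 1. For clone-named events the ratio was 2.72 in the first set (722 events, 95% interval of the median 2.51 to 3.03) and 4.85 in the second (604 events, 4.15 to 5.53). For other genes it was 2.71 and 4.94. In intermediate events alone it was 2.71 and 5.76 for clone-named genes and 2.74 and 6.22 for other genes. By these, both pairs of libraries scattered more than read sampling, the second pair more than the first. Over all events the clone-named ratios were those of other genes within the intervals given. These intervals treat the events as separate, though many share a gene or an exon. The larger ratio went with library 2 of the second set: in clone-named events the other pairs that hold it, across the sets, had 4.59 and 4.2, while library 1 of the second set against each of the first set had 2.69 and 2.58.

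On the scale of the level itself clone-named exons, which had fewer reads, scattered more. Of their 432 intermediate events, 23.8% differed by more than 0.2 between the libraries of the first set and 38.0% between those of the second, against 13.2% and 27.7% of other genes' intermediate events. At 10 to 20 reads the shares were 43.2% and 51.0% against 39.8% and 54.5%, and at 20 to 50 reads 22.3% and 37.8% against 18.9% and 42.6%. At 50 to 100 reads they were 3.8% and 32.9% against 6.27% and 25.4%. At like depth neither group was higher throughout.

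Exons called different between the sets were then counted. A call asked for an FDR under 0.05 and a difference in level of at least 0.1 in the authors' deposited table. Of the 835 clone-named events 63 (7.54%, 95% Wilson interval 5.94 to 9.54) were called, on 63 exons of 49 genes. The share was 3.44% of all 58887 events with the read minimum and 3.38% of those of other genes. Some of the called exons overlap: the 3 of CTD-2319I12.1 are nested and had the same 7, 5, 12 and 10 skipping reads. The 2 of RP11-10A14.4 also had equal skipping reads. The interval counts such calls as separate. The called events were shallow, with a median of 19.75 reads, and 32 of the 63 had under 20. The median size of the difference was 0.262, against 0.194 in the called events of other genes. Calls fell with depth in both groups: 16.1% of clone-named and 12.4% of other events at 10 to 20 reads, and 9.01% and 9.1% at 20 to 50. They were 6.25% and 4.96% at 50 to 100, and 1.72% and 1.85% at 100 to 200. None of the 76 clone-named events of 200 to 500 reads or of the 78 deeper ones was called, where only 0.494% and 0.0442% of other events were. With the other genes' share in each depth group 54.5 calls would have been made in place of 63.

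Calls were 13.5% of long intergenic, 12.8% of not-found, 9.52% of antisense, 9.46% of pseudogene, 8.33% of protein-coding, 4.61% of readthrough and 2.56% of processed transcript events. Of the 341 events of antisense or long intergenic genes with ordinary symbols, 41 (12%) were called, 21 higher and 20 lower in the first set. In the clone-named genes 7 long intergenic calls were higher and 5 lower, and 4 antisense calls were higher and 8 lower. Of the 49 calls outside readthrough genes 24 had under 20 reads. Sets did not overlap in inclusion level in 45 of the 63 called events, that is in 5.39% of clone-named events, where the same held for 2.66% of all events. Leaving out each library in turn, 39 of the 63 calls kept their direction and a difference of 0.1 or more all 4 times. Without library 2 of the second set 53 did, and without library 1 of the first set 55.

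The calls leaned to lower inclusion in the first set: 43 were lower there and 20 higher. That is 5.15% and 2.4% of clone-named events, where 1.76% and 1.68% of all events were called lower and higher. The share higher was 31.7%, against 49.5% of the 1963 calls of other genes. Its 95% Wilson interval, 21.6 to 44.0, is over events of which several share a gene and some have the same skipping reads. With the other genes' shares in each depth group 28.0 lower and 26.4 higher calls would have been made. Without library 2 of the second set the calls kept were 38 lower and 15 higher, and those of other genes 38.7% higher. With at least 50 reads, 6 were lower and 5 higher. In 23 of the 43 lower calls both libraries of the second set were at exactly 1, and in 10 of the 20 higher calls both of the first set were. Over all 432 intermediate events the difference was positive in 45.6% with a median of -0.0117, against 51.6% and 0.00346 in other genes.

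A quasi-binomial model with moderated dispersion takes the scatter of the libraries as its error, drawn mostly from partly included events of the whole table. It gave 0 clone-named events at an adjusted p under 0.05, where 0.0017% of all events, that is 1 event, passed. At an unadjusted p under 0.05 it gave 21 clone-named events (2.51%), where 3.34% of all events passed, and 15 of these were among the 63 calls. The calls described below thus rest on the authors' test and did not pass this one. Without library 1 of the second set, which leaves only the library that stood apart to stand for that set, 11 clone-named events (1.32%) passed and 1.36% of all events did. Without any other library it was 0.

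The largest called difference was in AC006014.7, a pseudogene by release 29. Its 59-nt exon (chr7:75113475-75113533) was included at 0.209 and 0.258 in the first set, against 0.667 and 1 in the second, from 104, 49, 19 and 28 reads. The first set lay below the second without overlap, by 0.6 in the authors' deposited table (FDR 1.71e-05; quasi-binomial p 0.000304, adjusted 0.836). It had the lowest unadjusted p of the clone-named events, and without library 2 of the second set the difference was -0.434. RP11-274B21.1, a readthrough gene, followed with 0.407 and 0.246 against 1 and 0.846, where the second set had only 7 and 10 reads.

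RP11-421L21.3, an antisense gene on chromosome 1, had 2 of the 8 largest lower calls. Its 171-nt exon was at 0.478 and 0.655 against 1 and 1, the last from 2 reads, and its 322-nt exon at 0.538 and 0.655 against 1 and 1. Skipping reads were equal for both exons, 6 and 5 in the libraries of the first set and 0 in the second. At means of 16 and 20.5 reads the calls thus rest on few reads and may not be separate. Another call in the gene, the 146-nt exon, was at 0.476 and 1 against 1 and 1, and its difference of -0.262 was 0 without library 1 of the first set and -0.524 without library 2 of it. In all, the gene had 17 events on 6 exons: 3 were called, all lower, while 11 of the 17 differences were positive, up to 0.199.

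The other lower calls named by size were in RP11-849H4.2 (0.027 and 0.143 against 0.231 and 1), AC017099.3 (C2orf92; 0.171 and 0.855 against 1 and 1), a gene not found in release 29 (90-nt exon at chr1:39989479-39989568, minus strand; 0 and 0 against 0.211 and 0.639) and RP11-958N24.1, a pseudogene whose 184-nt exon sequence is also in PKD1P1 (0.561 and 0.625 against 1 and 1). Each had means of 11.5 to 14 reads, and 3 of the 4 moved with single libraries. In RP11-849H4.2 the difference of -0.531 was -0.146 without library 2 of the second set and -0.915 without library 1 of it. In the 90-nt exon the difference of -0.425 was -0.211 and -0.639 without the same libraries. In AC017099.3 the difference of -0.487 was -0.145 without library 1 of the first set and -0.829 without library 2 of it. In RP11-958N24.1 it stayed between -0.439 and -0.375. Reads of the pseudogene exon cannot be told from those of its copies.

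Among the higher calls LINC01481 stood out in depth. Its 139-nt exon had 56, 48, 93 and 47 reads and was included at 1 and 1 in the first set (intervals from 0.883 and 0.866), against 0.639 and 0.657 in the second. No skipping read was seen in the first set, against 21 and 10 in the second. The difference of 0.352 (FDR 7.03e-08 in the authors' deposited table; quasi-binomial p 0.00165, adjusted 0.836) stayed between 0.343 and 0.361 when any 1 library was left out. RP5-886K2.3 (ELOA-AS1, opposite the elongin A gene) had 57, 70, 47 and 66 reads and levels of 0.839 and 0.892 against 0.516 and 0.63, by 0.292 higher, and between 0.236 and 0.349 without any 1 library.

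The remaining higher calls had fewer reads. CTA-211A9.5 had the largest, 0.58: its 207-nt exon was at 1 and 1 in the first set, against 0.697 and 0.143 in the second, the last from 4 reads, and without that library the difference was 0.303. The 89-nt exon of AC104532.2, a readthrough gene that shares it with CAPS, the calcyphosine gene, was at 1 and 0.625 against 0.385 and 0.173. AC131097.3 (LINC01237) was at 0.343 and 0.676 against 0 and 0, CTD-2162K18.5 (ZNF790-AS1) at 1 and 0.878 against 0.757 and 0.194, CTD-2270L9.4 at 0.362 and 0.491 against 0.171 and 0, and RP11-142I20.1 (KC6) at 0.354 and 0.242 against 0 and 0. In all of these the first set lay above the second, but the size moved with single libraries. In CTD-2162K18.5 the difference of 0.464 was 0.182 without library 2 of the second set and 0.746 without library 1 of it, and in AC104532.2 that of 0.533 was 0.347 without library 1 of the first set.

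**Figure D5:**
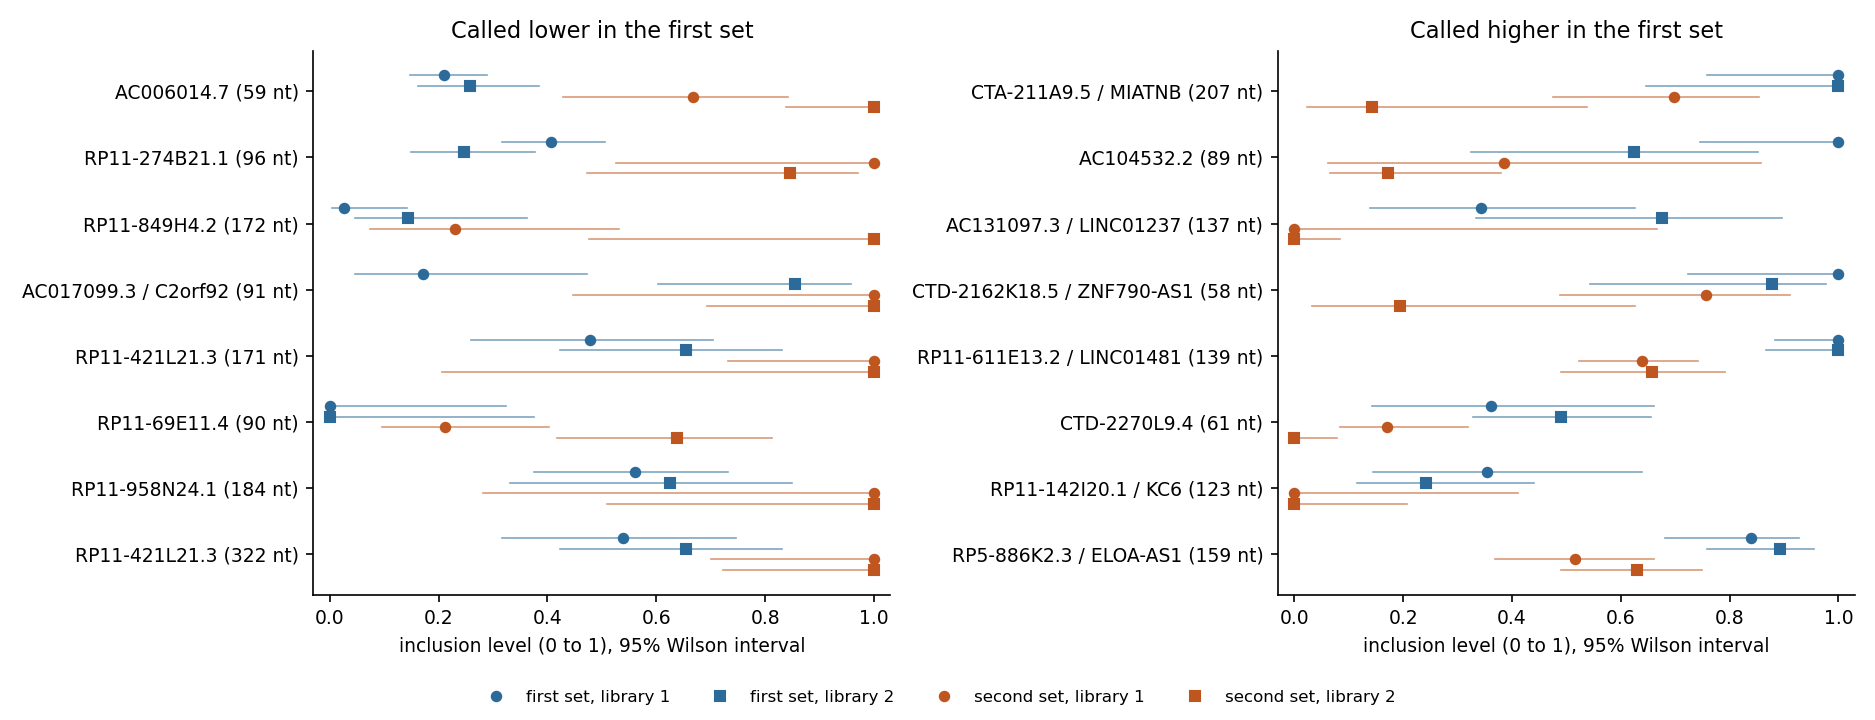
Inclusion level (0 to 1) in each library (points; bars, 95% Wilson intervals, counting error only) of the 8 largest non-overlapping calls lower (left) and higher (right) in the first set, named by clone, then by any release 29 symbol, with exon length in brackets. The intervals are wide where reads are few, as in the 207-nt exon of CTA-211A9.5, while LINC01481 sits at 1 in the first set and at 0.639 and 0.657 in the second.

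Some genes had calls in both directions. In CTA-211A9.5 the 179-nt exon was at 0 and 0 in the first set, against 0.102 and 0.5 in the second, opposite to the 207-nt exon. The 0.5 came from 3 reads, and the difference of -0.301 was -0.102 without that library and -0.5 without the other library of the second set. In the gene not found in release 29 named above by its 90-nt exon, the 136-nt exon at chr1:39989234-39989369 was at 1 and 1 against 0.748 and 0.677, from 30, 36, 60 and 30 reads, while the 90-nt exon was lower in the first set. CTD-2314B22.3 (DUXAP10) had 1 call higher and 2 lower, and AC138035.2 and RP11-142I20.1 had 1 of each. In the latter 2 genes the opposite directions hung on 1 library: the higher call of AC138035.2, 0.154, was -0.0238 without library 2 of the second set, and the lower call of RP11-142I20.1, -0.132, was 0 without library 1 of the first set. The lower call of AC138035.2, -0.196, was -0.1 without library 1 of the first set. These genes were picked out for this pattern after their values were seen.

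Genes with many events show how exon use varies within a gene. RP11-349A22.5 (PSMA3-AS1, transcribed opposite the proteasome subunit gene PSMA3) had most, 18 events on 8 exons of 32 to 2046 nt, at 11.75 to 217 mean reads. Mean levels ran from 0.00215 to 0.995, 7 events were intermediate, and none was called. The 166-nt exon, for instance, was at 0.598 and 0.667 against 0.694 and 0.503 with one pair of neighbours and at 1 and 0.98 against 0.985 and 1 with another. The 73-nt exon at chr14:58759784-58759856 was mostly skipped, at 0.0471 and 0.0343 against 0.129 and 0.0133. The level of an exon in this gene thus differed with the neighbours it was scored with.

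RP11-22B23.1, a pseudogene transcript related to the DDX11 helicase family, had 14 events on 10 exons. Its 80-nt exon occurs whole in DDX11 and DDX12P, its 79-nt exon in DDX11 and its 47-nt exon in DDX12P, so those reads may come from more than 1 gene. Mean levels ran from 0.524 to 0.992. The 150-nt exon, found in no other gene of release 29, was called: it was at 0.767 and 0.814 against 0.652 and 0.596, from 190, 176, 171 and 166 reads, by 0.166 higher in the first set (FDR 0.00964 in the authors' deposited table; quasi-binomial p 0.0324, adjusted 0.836). It was the deepest called clone-named event. The same exon scored with other neighbours was at 0.956 and 0.903 against 0.947 and 0.957, where the sets overlapped.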

How the data were processed

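Skipped exon events were taken from the authors' deposited table, which per the file headers has the layout of rMATS junction counts. Per the submitters' processing notes, cutadapt, STAR and hg19 were used; versions, the strand setting and the annotation release are not given in the sources used here. Per the labels, reads were 150 bp pairs on poly(A) RNA. The deposited table gives inclusion and skipping junction read counts, effective form lengths and inclusion levels (fractions) per library, a p-value and its FDR (a q-value) per event, and, as a score, the first set's mean inclusion level minus the second's. Recomputed levels lay within 0.0005 of the deposited ones, and the FDR was the Benjamini-Hochberg adjustment over all 65601 events. Overlapping genes and antisense partners cannot be told apart without the strand setting.

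Events with a mean of at least 10 junction reads were kept. A quasi-binomial model per event (limma 3.58.1, R 4.3.3) had its dispersion moderated with squeezeVar and not set under 1, with Benjamini-Hochberg adjustment over all 58887 events. Its prior (3.368 on 26.93 degrees of freedom) was estimated on 13930 events of intermediate inclusion. A prior over all events was planned first. It found none of the events made to differ in reads simulated at these depths and levels, and was replaced. Those reads had no scatter between libraries beyond sampling, so which prior suits these data better was not tested. Library values were compared by exact permutation. Intervals are 95% Wilson intervals of the reads or events, and for the scatter ratio rank-based intervals of the median over events. They cover counting error only. Classes, symbols and exon sequences came from GENCODE release 29 by gene identifier and exon spacing, which gave a sequence for 730 of the 835 events; a sequence of at least 20 nt was searched whole in all other genes' transcripts.

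Named exons were, by rule, the 8 largest non-overlapping calls in each direction (1 per exon), the deepest event of the 8 genes with most reads, the 8 deepest intermediate events (1 per gene) and the 3 genes with most events. The clone-named genes, lists and rules were chosen with earlier results of these data known. The permutation p-values between sets rest on 2 libraries per set. Those of the sign-flip test rest on 4 libraries, within each of which clone-named events were compared with others. Those of the quasi-binomial test rest mostly on the prior, with 26.93 degrees of freedom against at most 2 of an event's own.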

Additional observations from a re-analysis of the deposited data

How the results depend on the processing

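No paired analysis was possible because each table cell lists both libraries of its set with no replicate numbers. The 63 calls fell to 31 with at least 20 reads (4.87% of events, against 2.68% of other genes' events) and 11 with at least 50 (2.66% against 1.55%). They fell to 40 with a difference of at least 0.2 (4.79% against 1.61%) and 29 with an FDR under 0.01 (3.47% against 1.65%). With the quasi-binomial test and a difference of at least 0.1 they were 0, as were those of other genes. Without each library in turn, 53 to 61 of the 63 kept their direction and a difference of 0.1 or more. The FDR of all 4 libraries was kept there and no test was rerun, so this count could not rise. Calls with higher inclusion in the first set moved from 31.7% to 45.5% with at least 50 reads, and was 28.3% to 34.5% without each library. The quasi-binomial counts without single libraries are given with that test above. With a prior over all events the count was also 0. In simulated reads that prior found none of the events made to differ, so its 0 is no check of the result. The mean depth ratio of 0.291 was 0.139 with no read minimum, 0.406 with at least 20 reads and 0.195 without readthrough genes (an alternative chosen after seeing the data, as are the others without readthrough genes and those that leave out a library of the quasi-binomial test or of the share of reads); it was 0.284 to 0.298 without each library.

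The intermediate share of 51.7% was 38.8% between 0.1 and 0.9, 79.3% between 0.01 and 0.99, 43.6% and 31.2% with at least 20 and 50 reads, and 65.7% without readthrough genes, against 17.2%, 57.1%, 24.2%, 19.6% and 27.1% of other genes, so it stayed above them in each; it was 50.1% to 53.3% without each library. The scatter ratio of the first set, 2.72, was 3.26 at 100 to 200 reads and 2.13 at 200 to 500. That of the second, 4.85, was 5.76 in intermediate events, 5.64 at 50 to 100 reads and 3.73 at 100 to 200. Over all clone-named events 12.9% and 19.6% differed by more than 0.2 between the libraries of the first and the second set. The difference in the share of junction reads, first minus second set, was -0.0186 percentage points, from -0.0254 to -0.0119 without each library, and reversed to 0.0155 without readthrough genes. Where a value moved, the cause was not tested. An edgeR fit was not run, since the table's cells hold several libraries and are not listed as counts.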
